A study of Mus musculus with 12 samples.

Results

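The histone genes of the mouse with a transcript cluster of their own on the array were followed across fetal gonads of 3 genotypes. Members were chosen by name, as genes whose symbol, old or current, belongs to the histone families H1, H2A, H2B, H3 or H4, with 1 row per gene where a row carried that gene's symbol alone. This gave 50 genes of the 30711 genes with a row of their own. Of these, 25 were replication-dependent histone genes of the Hist clusters, 11 were germline variants, 7 were replacement variants and 7 were pseudogenes or unclassed copies. The name rule matches 94 genes in RefSeq, not all of which had a row of their own. A further 41 rows carried several symbols including a histone, and 38 of them carried histone symbols alone. H3f3a and H3f3b, which encode the replacement histone H3.3, were read only through such shared rows. Histone genes are short and near-identical, so probes of 1 gene can also bind its copies, and the level of any single replication-dependent gene is uncertain to that extent.

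Histones package DNA into nucleosomes. Replication-dependent genes lie in clusters, are transcribed in S phase, lack introns and give mRNAs that end in a stem-loop in place of a poly(A) tail. Replacement variants are made outside S phase, and germline variants replace the common histones in spermatocytes, spermatids or oocytes. H2ac1 and H2bc1 encode TH2A and TH2B, a pair of H2A and H2B variants known from mouse germ cells and the early embryo.

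RNA was measured in gonads at 14.5 days post coitum on an Affymetrix mouse transcriptome array, 12 arrays in all, 4 for each genotype, each array from the gonad pair of a single embryo without the mesonephros. The XY FOXL2+ gonads carried 1 Rosa26 allele that expresses Foxl2 from a CAG promoter once Cre has removed a stop cassette, together with Sf1-Cre. The XX control and XY control gonads carried the same Sf1-Cre transgene and wild-type Rosa26 alleles, so that all 3 groups carry Cre, and all embryos were of mixed 129Sv and C57Bl/6J background. The Sf1 driver is active in somatic cells of the fetal gonad and is not known to act in germ cells.

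Values are signals on a log scale, taken as log2. A gene is called higher or lower where limma's p, adjusted by the Benjamini-Hochberg method over 65956 clusters, was under 0.05. Foxl2 read 7.67, 8.62, 7.18 and 6.72 in XY FOXL2+ gonads, against 5.07, 5.55, 5.44 and 5.33 in XY control gonads. It was thus higher on every array labelled XY FOXL2+. Xist and 3 Y-linked genes separated XX from XY arrays as labelled. The markers of Sertoli cells (4 of 4) and of fetal Leydig cells (4 of 4 measured) were lower in XY FOXL2+ than in XY control gonads and lower in XX than in XY control gonads. Of 5 fetal granulosa cell markers, 2 were higher in XY FOXL2+ and 5 in XX control gonads, each against XY control, and one of the 2 was Foxl2, which the transgene expresses. Between XY FOXL2+ and XY control gonads, 1 of 4 endothelial and 3 of 4 macrophage markers were higher, 0 of 3 erythroid markers passed the test and none of these 3 had an unadjusted p under 0.05, and of 4 mesonephric markers 1 was higher and 1 lower. On the first principal component, with 51.5% of the variance, XY FOXL2+ replicates 1 and 2 lay at 20.3 and 39.1, and replicates 3 and 4 at -21.3 and -23.1. On it XX control arrays lay at 55.8 to 61.6 and XY control arrays at -66.3 to -59.9. XY FOXL2+ replicate 1 stood apart from the other 11 arrays on the second principal component, at -76.9 against -22.1 to 22.6, and results that rest on it are given with and without it below.

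Promoters are shown for 4 windows because they belong to the genes the results turn on. They comprise the region between H2ac1 and H2bc1, the promoter of H3f4, that of H1f2, and that of H2ac10, a replication-dependent H2A gene given for comparison because H2ac14, the H2A gene with the highest signal, has no entry in the table; H2ac10 was chosen after its values were seen. Each is the 250 bases before the annotated start in RefSeq on GRCm38.p6, on the plus strand, at chr13:23934187-23934436 for H2ac1, chr11:58961461-58961710 for H3f4, chr13:23533625-23533874 for H2ac10 and chr13:23738557-23738806 for H1f2. Capitals mark matches, on either strand, to the CCAAT box (CCAAT), the octamer (ATTTGCAT) known from H2B promoters, the TATA box (TATAAA) and the motif CNCCTCAG described for the meiotic factor STRA8.
H2ac1: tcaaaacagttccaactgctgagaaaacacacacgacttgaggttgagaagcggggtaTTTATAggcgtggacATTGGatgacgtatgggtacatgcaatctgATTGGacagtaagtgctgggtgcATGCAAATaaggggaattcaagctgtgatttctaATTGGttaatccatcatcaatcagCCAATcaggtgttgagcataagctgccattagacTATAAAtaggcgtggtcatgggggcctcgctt
H3f4: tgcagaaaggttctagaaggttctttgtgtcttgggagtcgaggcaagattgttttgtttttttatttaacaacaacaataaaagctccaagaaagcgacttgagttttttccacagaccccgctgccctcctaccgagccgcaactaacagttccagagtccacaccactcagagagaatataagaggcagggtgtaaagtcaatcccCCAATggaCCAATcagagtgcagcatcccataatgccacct
H2ac10: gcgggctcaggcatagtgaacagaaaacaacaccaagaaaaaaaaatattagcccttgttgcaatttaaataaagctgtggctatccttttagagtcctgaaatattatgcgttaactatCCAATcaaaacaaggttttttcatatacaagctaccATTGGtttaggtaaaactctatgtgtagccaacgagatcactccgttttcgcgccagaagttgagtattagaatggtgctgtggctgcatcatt
H1f2: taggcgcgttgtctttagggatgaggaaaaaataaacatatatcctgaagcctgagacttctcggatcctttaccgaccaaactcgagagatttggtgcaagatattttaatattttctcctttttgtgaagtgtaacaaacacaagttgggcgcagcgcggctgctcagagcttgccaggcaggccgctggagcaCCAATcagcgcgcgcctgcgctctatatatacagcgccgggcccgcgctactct

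H2ac1 and H2bc1 lie head to head on chromosome 13 with 280 bases between their starts, and their promoter windows share 220 bases. The H2ac1 window held 4 CCAAT boxes, 1 octamer and 2 TATA boxes, and the octamer from -124 to -117 is the same stretch of DNA as that from -164 to -157 in the H2bc1 window. The other TATA box of the H2ac1 window, from -192 to -187 on the opposite strand, is the one found from -94 to -89 in the H2bc1 window. The 4 CCAAT boxes of the H2bc1 window are likewise the same sites as those of the H2ac1 window. H3f4 had 2 CCAAT boxes at -41 and -33 and neither an octamer nor a TATA box. H2ac10 held 2 CCAAT boxes and H1f2 held 1.

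Of the 50 histone genes, 39 had a promoter window. A CCAAT box was found in 21 of 22 replication-dependent windows and 8 of 11 germline windows, against 33.8% of all 32851 windows. The octamer was found in 6 of 22 replication-dependent windows, 4 of them among the 6 H2B windows, and in 2 of 11 germline windows, those of H2ac1 and H2bc1, against 1.6% of all windows. A TATA box was found in 8 of 22 replication-dependent windows and again only in H2ac1 and H2bc1 among the germline windows, against 12.4% of all windows. The H2ac1 and H2bc1 windows thus each held the CCAAT box, the octamer and the TATA box, whereas the H3f4 window held the CCAAT box alone. The first 2 windows hold these motifs in the bases they share, so they do not count as 2 independent windows. The same may hold for the replication-dependent windows of H2ac12 and H2bc12. Their octamers, at -155 to -148 and -30 to -23 on opposite strands, and their CCAAT boxes lie at mirrored positions. The STRA8 motif was found in 1 of 11 germline windows and 2 of 22 replication-dependent windows, against 6.42% of all windows, and these letters were not in the windows of H2ac1, H2bc1 or H3f4. No match overlapped another in the 4 windows printed.

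**Figure D1:**
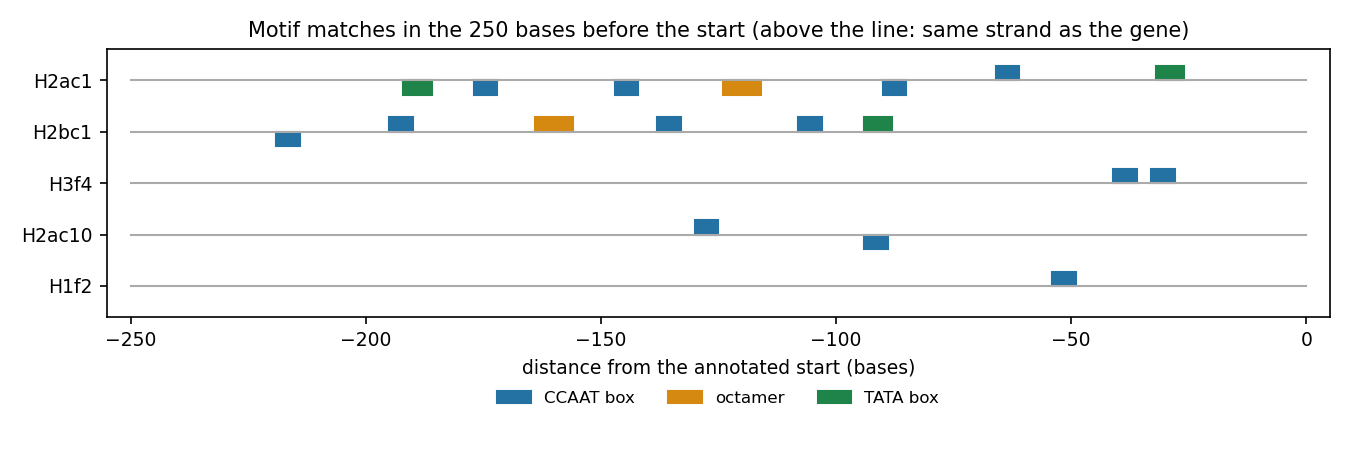
Positions of motif matches (coloured boxes) in the 250 bases before the start of 5 histone genes. The horizontal axis is the distance in bases from the annotated start; boxes above a line lie on the strand of the gene and boxes below it on the opposite strand. H2ac1 and H2bc1 each hold 4 CCAAT boxes and an octamer, which are the same sites in the bases both windows share. H3f4, H2ac10 and H1f2 hold CCAAT boxes alone.

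The germline variants H2ac1, H2bc1 and H3f4 were the only histone genes higher in XY FOXL2+ than in XY control gonads, and each was also higher in XX control than in XY control gonads. These comparisons share the 4 XY control arrays. Against XY control, H2ac1 was 16.2-fold higher in XY FOXL2+ gonads and 35.5-fold higher in XX control gonads. None of the 3 passed the test between XY FOXL2+ and XX control gonads. Between XY FOXL2+ and XY control gonads, 3 of 50 histone genes were higher and 1 was lower, against 3.38% and 4.72% of the 30711 genes with a row of their own. Between XX control and XY control gonads, 3 were higher and 4 lower, against 10.2% and 11% of those genes. Between XY FOXL2+ and XX control gonads, 4 were higher and 0 lower, against 3.2% and 3.32% of those genes. There, 15 higher and 3 lower had an unadjusted limma p under 0.05. The share of all genes at that unadjusted threshold was not computed, so nothing is read from this count. Leaving out single arrays moved the counts of called genes. Without XY FOXL2+ replicate 1, 10 genes were lower in XX control than in XY control gonads. Without XY FOXL2+ replicate 4, 5 were higher in XY FOXL2+ than in XY control gonads. Between XY FOXL2+ and XX control gonads 2 were higher without XX control replicate 2 or 3, and 2 were lower without XY FOXL2+ replicate 2. The shares lie within a few genes of the background, and nothing is read from them about the family as a whole.

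**Figure D2:**
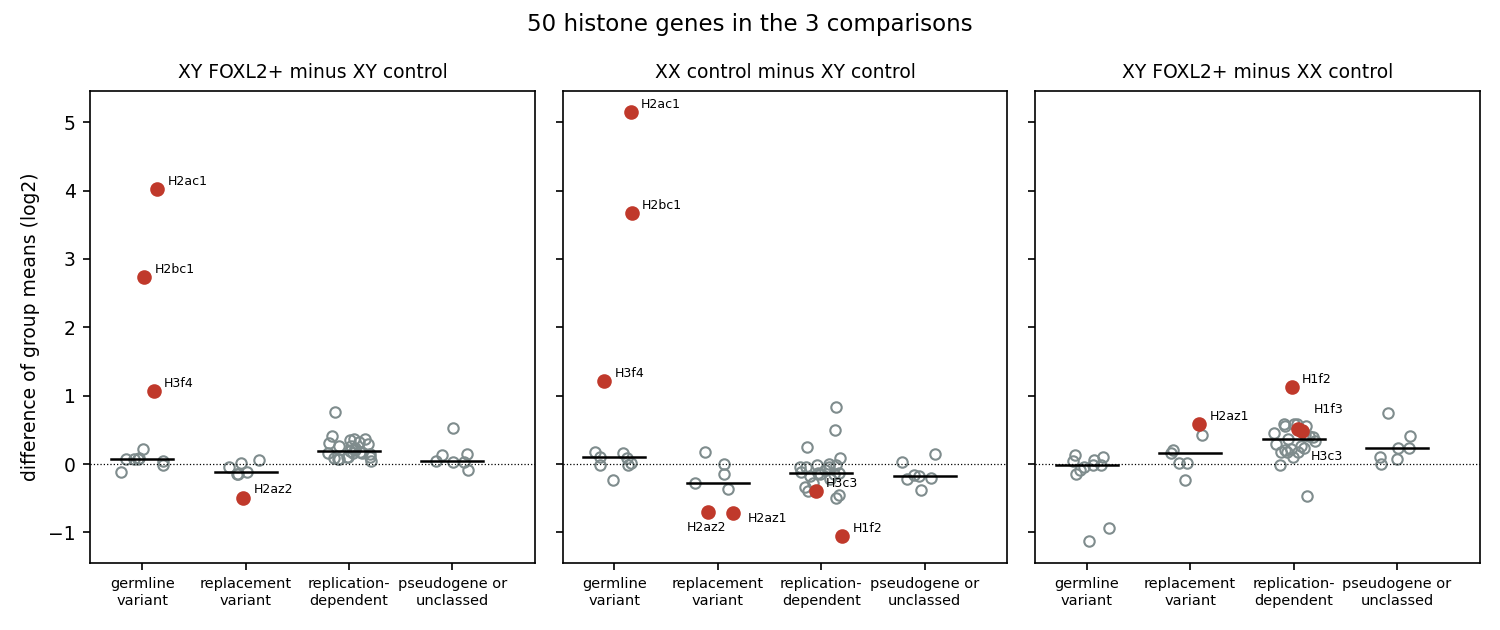
Difference of group means (log2, vertical axis) of the 50 histone genes in the 3 comparisons, by class; each point is a gene, filled points with names passed the limma test, and black lines are class medians. H2ac1 and H2bc1 lie at 4.02 and 2.73 in XY FOXL2+ minus XY control, while the replication-dependent genes lie between 0.05 and 0.76.

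H2ac1, the TH2A gene, read 12.97, 15.5, 14.18 and 14.14 in XY FOXL2+ gonads, 15.33, 15.22, 15.51 and 15.25 in XX control gonads, and 10.64, 10.61, 9.91 and 9.56 in XY control gonads. Every XY FOXL2+ array lay above every XY control array, replicate 2 lay within the XX range, and the other 3 lay below it. The difference between XY FOXL2+ and XY control was 4.02 ± 0.41 (SE, n = 4 each, limma adjusted p = 5.27e-05), and that between XX control and XY control was 5.15 ± 0.41 (limma adjusted p = 3.63e-06). An exact permutation test, two-sided, gave p = 0.0286 for either difference, the smallest that 4 against 4 arrays allow. XY FOXL2+ gonads averaged 14.2 ± 1.03 and XX control gonads 15.33 ± 0.13 (SD, n = 4 each), a difference of -1.13 with a 95% interval of -2.01 to -0.25 and a limma adjusted p of 0.142. The interval excludes 0 while the p adjusted over the whole array misses the threshold, so a lower level in XY FOXL2+ than in XX control gonads was not called.

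H2bc1, the TH2B gene across the shared promoter, read 11.32, 13.23, 12.08 and 12.14 in XY FOXL2+ gonads, 13.44, 13.06, 13.35 and 12.67 in XX control gonads, and 9.8, 10.14, 9.43 and 8.46 in XY control gonads. As for H2ac1, XY FOXL2+ replicate 2 was the highest of its group and replicate 1 the lowest, and no XY FOXL2+ array overlapped the XY control arrays. H2bc1 was 6.65-fold higher in XY FOXL2+ than in XY control gonads, a log2 difference of 2.73 ± 0.39 (SE, limma adjusted p = 0.000914). It was 12.7-fold higher in XX control than in XY control gonads (log2 difference 3.67 ± 0.39, limma adjusted p = 3.45e-05). XY FOXL2+ and XX control gonads differed by -0.94, with a 95% interval of -1.79 to -0.09 and a limma adjusted p of 0.214. Without XY FOXL2+ replicate 2, the XY FOXL2+ array with the highest H2ac1 and H2bc1, the differences from XX control were -1.57 for H2ac1 and -1.28 for H2bc1, and both passed the test.

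H3f4, the testis-type histone H3 gene of the mouse, read 11.18, 12.13, 10.84 and 11.09 in XY FOXL2+ gonads, 11.35, 11.24, 11.75 and 11.45 in XX control gonads, and 10.35, 10.13, 10.4 and 10.09 in XY control gonads. All XY FOXL2+ and XX control arrays lay above all XY control arrays, in a narrower span than for H2ac1. H3f4 was 2.1-fold higher in XY FOXL2+ than in XY control gonads (log2 difference 1.07 ± 0.23, limma adjusted p = 0.0111). It was 2.31-fold higher in XX control than in XY control gonads (limma adjusted p = 0.00208). XY FOXL2+ and XX control gonads differed by -0.14, with a 95% interval of -0.63 to 0.35. Without XY FOXL2+ replicate 1, the differences of XY FOXL2+ from XY control were 4.42 for H2ac1, 3.02 for H2bc1 and 1.11 for H3f4, and all 3 passed the test.

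**Figure D3:**
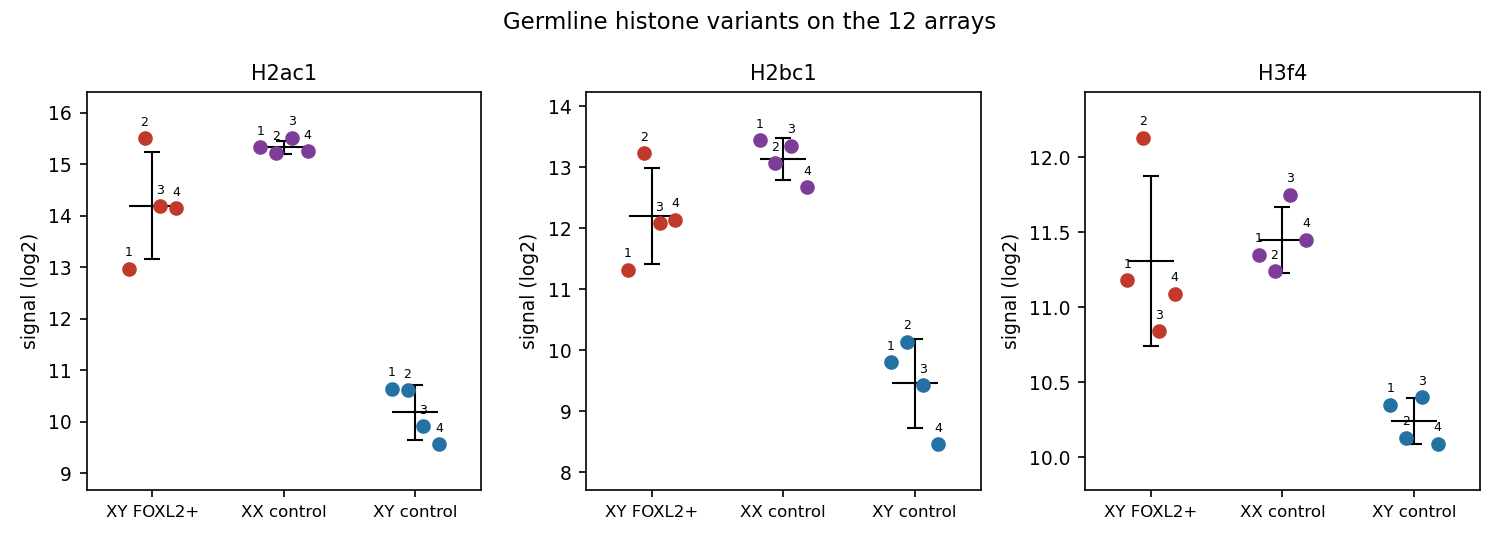
Signal (log2, vertical axis) of H2ac1, H2bc1 and H3f4 on each array, by genotype; points are single embryos with their replicate number, and bars are the mean and SD of 4 arrays. XY FOXL2+ and XX control arrays lie above all XY control arrays in each panel, and XY FOXL2+ replicate 2 reads highest in its group.

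The other germline variants read low and were not called. H1f6, H1f7 and H1f8 encode linker histones of spermatocytes, spermatids and oocytes, H2ab1, H2ab2 and H2ab3 short H2A variants of the testis, and H2al2a an H2A variant of late spermatids. Group means of H1f8, the lowest, were 5.06 in XY FOXL2+, 4.97 in XX control and 4.99 in XY control gonads, and those of H2al2a, the highest of the 7, were 6.41, 6.37 and 6.35 in the same order. Levels of different probes cannot be set against each other, so whether these 7 variants were expressed was not tested. Their changes ran from -0.02 to 0.22 between XY FOXL2+ and XY control, from -0.02 to 0.17 between XX control and XY control, and from -0.08 to 0.1 between XY FOXL2+ and XX control. None passed the limma test in any comparison, and none had an unadjusted p under 0.05. H3f3c, a further H3.3-type copy that the name rule lists here, read 12.77 ± 0.33 in XY FOXL2+, 12.64 ± 0.09 in XX control and 12.88 ± 0.04 in XY control gonads (SD, n = 4 each) and was not called. Its sequence is close to that of H3f3a and H3f3b, whose mRNAs its probes may read.

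Markers of germ cells and of meiosis were set beside these values. In bulk gonads, fewer cells of a type and less RNA per cell cannot be told apart. The summed signal of 10 germ cell markers, on the log2 scale, was 15.05 to 16.53 in XY FOXL2+, 16.24 to 16.6 in XX control and 15.69 to 16.53 in XY control gonads, with none of the 10 at 0, and XY FOXL2+ replicate 1 was the lowest. Of these markers, 0 were higher in XY FOXL2+ gonads than in XY control gonads and 2 were lower (0 and 5 at an unadjusted limma p under 0.05), and 2 were higher and 4 lower in XX control than in XY control gonads. Within the XY FOXL2+ group, replicate 2 was the highest on that sum and replicate 1 the lowest, as for H2ac1. The order depended on the measure. The mean log2 signal of the 10 markers was 9.48, 9.94, 10.17 and 10.39 in XY FOXL2+ gonads, with replicate 4 the highest and replicate 1 again the lowest. The part of germ cells in the H2ac1 difference was not tested.

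Of 12 meiotic markers, 10 were higher in XY FOXL2+ than in XY control gonads and 12 were higher in XX control than in XY control gonads, and 1 was lower in XY FOXL2+ than in XX control gonads. Their summed signal, on the log2 scale, was 14.96, 17.38, 16.31 and 16.32 in XY FOXL2+ gonads, 16.97 to 17.21 in XX control gonads and 13.32 to 13.97 in XY control gonads. XY FOXL2+ replicate 2 was the highest of all 12 arrays on that sum and replicate 1 the lowest of its group. Within the XY FOXL2+ group, H2ac1 and H2bc1 were also highest in replicate 2 and lowest in replicate 1. H3f4 was highest in replicate 2 but lowest in replicate 3, at 10.84. The highest H2ac1 signal of all arrays was in XX control replicate 3, at 15.51. The part of meiotic cells in the H2ac1, H2bc1 and H3f4 differences was not tested.

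None of the 25 replication-dependent genes passed the test between XY FOXL2+ and XY control gonads, and 2 had an unadjusted limma p under 0.05. These were the linker histone gene H1f1 and the H4 gene H4c1, and H1f1 is named after its values were seen. H1f1 read 10.15, 9.93, 8.89 and 8.93 in XY FOXL2+ gonads, against 8.82, 8.86, 8.61 and 8.56 in XY control gonads, a difference of 0.76 with a 95% interval of 0.2 to 1.33 (limma adjusted p = 0.109). H4c1 read 7.14, 6.8, 6.61 and 6.55 in XY FOXL2+ gonads, against 6.46, 6.45, 6.38 and 6.39 in XY control gonads, a difference of 0.36 (limma adjusted p = 0.0922). The groups did not overlap for either gene, and in both XY FOXL2+ replicates 1 and 2 read highest. Both passed the test without XY FOXL2+ replicate 4.

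All 25 changes were positive in that comparison, with a median of 0.19 and a range of 0.05 to 0.76, against 54.8% positive and a median of 0.02 over all 30711 genes. The 25 genes share probes and arrays and do not count as 25 independent readings. XY FOXL2+ replicate 1 read highest of its group in 23 of the 25 and above all other 11 arrays in 22. Without that array 17 of 25 changes were positive, with a median of 0.05. The 38 rows shared by several histone genes gave 33 positive changes with a median of 0.13, and without replicate 1 they gave 17 positive changes with a median of -0.03. The lean of these genes towards XY FOXL2+ gonads thus rested largely on that array.

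Averaged over the 25 genes on each array, the signal was 9.5, 9.03, 8.71 and 8.7 in XY FOXL2+ gonads, 8.59, 8.56, 8.75 and 8.65 in XX control gonads, and 8.81, 8.8, 8.75 and 8.68 in XY control gonads. XY FOXL2+ replicates 1 and 2 lay above all control arrays, and replicates 3 and 4 lay within the control range. The mean of H2ac1 and H2bc1 minus that average was 2.65, 5.33, 4.42 and 4.44 in XY FOXL2+ gonads, 5.31 to 5.8 in XX control gonads and 0.33 to 1.58 in XY control gonads. The germline pair and the replication-dependent genes thus did not move together: the group means of the pair differed by 3.38 between XY FOXL2+ and XY control gonads, and those of the 25 genes by 0.23. Relative to the replication-dependent genes, XY FOXL2+ arrays lay above all XY control arrays, and only replicate 2 reached the XX control range. These averages are a description of probes with different affinities and carry no test.

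**Figure D4:**
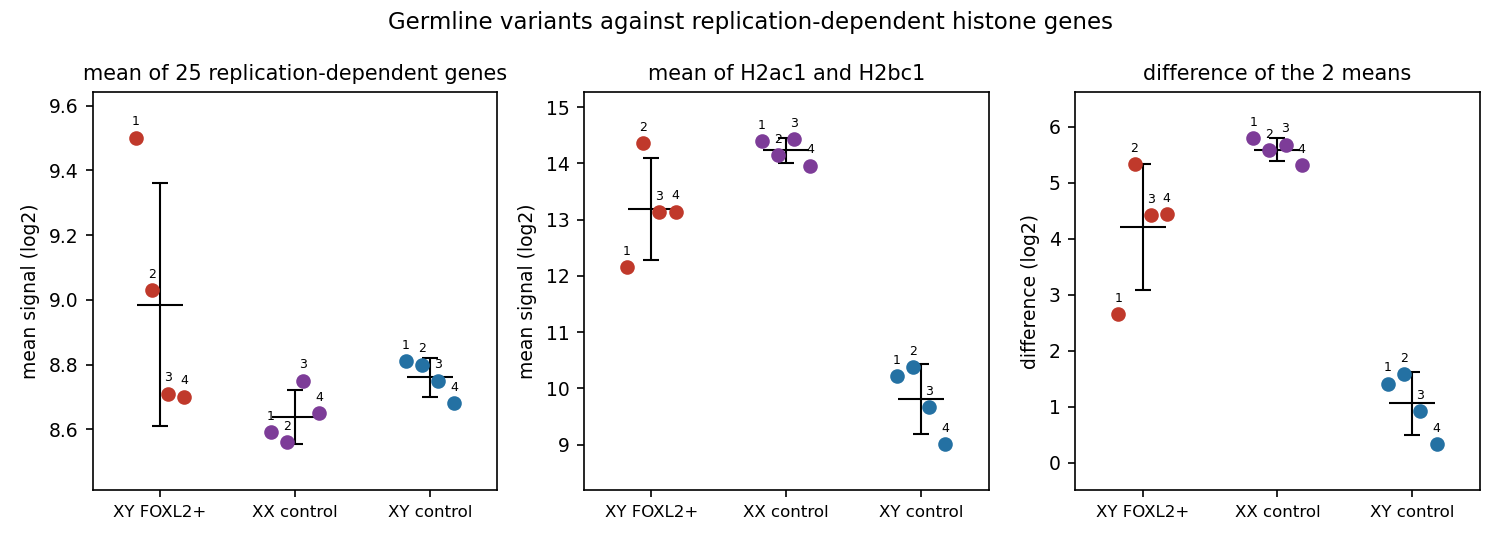
Mean signal (log2, vertical axis) of 25 replication-dependent histone genes, mean signal of H2ac1 and H2bc1, and the difference of both, on each array by genotype; points are embryos with replicate numbers and bars are mean and SD of 4 arrays. XY FOXL2+ replicate 1 has the highest replication-dependent mean, 9.5, and the lowest difference of its group, 2.65.

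Proliferation markers were read beside the replication-dependent genes. The summed signal of 23 S phase genes, on the log2 scale, was 16.95, 16.41, 16.04 and 16 in XY FOXL2+, 16.04 to 16.25 in XX control and 15.93 to 16.11 in XY control gonads, with none at 0. The same XY FOXL2+ replicates 1 and 2 were highest. The mean log2 signal of 5 mitosis genes was 13.21, 12.57, 12.71 and 12.62 in XY FOXL2+, 11.99 to 12.22 in XX control and 12.72 to 12.92 in XY control gonads. Their summed signal, on the log2 scale, was 16.79, 16.44, 16.34 and 16.26 in XY FOXL2+, 15.76 to 16.03 in XX control and 16.2 to 16.4 in XY control gonads. On both measures XY FOXL2+ replicate 1 was again the highest of all arrays and the XX control arrays were the lowest. Replicate 2 was the lowest of its group on the mean and lay above all control arrays on the sum. The part of cell proliferation in the replication-dependent signals was not tested.

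Most replication-dependent genes had lower mean signals in XX control gonads than in either XY group, and few passed the test. Between XX control and XY control gonads 4 of 25 changes were positive, with a median of -0.13, against 44.7% positive and a median of -0.02 over all genes. Under quantile normalization or median centring of the arrays the positive changes numbered 10 of 25. The test was passed by 2 of 25, H1f2 and H3c3, both lower in XX control gonads, against 11% of all genes lower. Between XY FOXL2+ and XX control gonads 23 of 25 changes were positive, with a median of 0.36, against 59.4% and 0.03 over all genes, and 3 of 25 passed the test, H1f2, H1f3 and H3c3, against 3.2% of all genes higher. Without XY FOXL2+ replicate 1 the count was 22 of 25, with a median of 0.16, and the same 3 genes passed. The shared rows gave 38 of 38 positive changes, with a median of 0.33 and 3 called higher, and without replicate 1 again 38 of 38, with a median of 0.16. Of these shared rows 5 were lower in XX control than in XY control gonads and 4 of 38 changes were positive, with a median of -0.17, and 1 was higher in XY FOXL2+ than in XY control gonads, or 0 without XY FOXL2+ replicate 1. Of the 5 mitosis genes, 4 were lower in XX control than in XY control gonads and 4 were higher in XY FOXL2+ than in XX control gonads, and 0 passed between XY FOXL2+ and XY control gonads, 1 having an unadjusted limma p under 0.05. Without XY FOXL2+ replicate 1, 2 of the 5 were lower in XY FOXL2+ than in XY control gonads.

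H1f2, a linker histone gene, read 10.05, 9.21, 9.47 and 9.33 in XY FOXL2+ gonads, 8.66, 8.57, 8.3 and 8.06 in XX control gonads, and 9.47, 9.49, 9.3 and 9.54 in XY control gonads. The XX control arrays lay below all other 8 arrays. H1f2 was 2.07-fold lower in XX control than in XY control gonads (log2 difference -1.05 ± 0.17, SE, limma adjusted p = 0.000881) and 2.17-fold higher in XY FOXL2+ than in XX control gonads (log2 difference 1.12, limma adjusted p = 0.00275). The difference between XY FOXL2+ and XY control gonads was 0.07, with a 95% interval of -0.31 to 0.44. Both calls held in all 20 alternative analyses.

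H3c3 had the highest signal of the 3 replication-dependent H3 genes with a row of their own. It read 7.49, 7.07, 7.08 and 7.1 in XY FOXL2+ gonads, 6.66, 6.65, 6.8 and 6.69 in XX control gonads, and 7.19, 7.04, 7.13 and 6.99 in XY control gonads. The XX control arrays were again below all others, by a smaller step than for H1f2. It was 1.31-fold lower in XX control than in XY control gonads (limma adjusted p = 0.016), a call lost under quantile normalization, under median centring and without XY control replicate 1, with an adjusted p of up to 0.108. It was 1.4-fold higher in XY FOXL2+ than in XX control gonads (limma adjusted p = 0.0131). Shared rows that carry H3c3 with other histone genes were not called in any comparison. The highest of these rows averaged 13.65 in XY FOXL2+, 13.2 in XX control and 13.34 in XY control gonads. H1f3, another linker histone gene, read 6.77, 6.57, 6.32 and 6.17 in XY FOXL2+ gonads, against 5.93, 5.92, 5.9 and 6.04 in XX control gonads, 1.42-fold higher (limma adjusted p = 0.0192, up to 0.063 over 20 alternatives). Its groups did not overlap, and its XX control signal lay below the median cluster of the array.

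Among replication-dependent genes with a row of their own, those with the highest signal in the H1, H2A and H2B families were not called in any comparison. H1f5, a linker histone gene, averaged 11.17 ± 0.56 in XY FOXL2+, 10.76 ± 0.3 in XX control and 10.9 ± 0.12 in XY control gonads (SD, n = 4 each). H2ac14, which RefSeq lists as a pseudogene although its name places it with the cluster genes, averaged 17.99 ± 0.28, 17.77 ± 0.08 and 17.85 ± 0.12 in the same order. H2bc18, an H2B gene, averaged 11.2 ± 0.53 in XY FOXL2+, 10.64 ± 0.15 in XX control and 11.04 ± 0.06 in XY control gonads. In each of the 3 the XY FOXL2+ spread exceeded that of both controls and replicate 1 was the highest array. H2bc21, an H2B gene, was named after its values were seen, and only its name places it in the replication-dependent class. It went the other way, at 9.97, 9.65, 9.26 and 9.4 in XX control gonads, against 8.54, 8.41, 8.94 and 9.06 in XY control gonads. That difference of 0.83 had the lowest adjusted p of the replication-dependent H2B genes, 0.075, and was not called.

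Among the replacement variants, the H2A.Z genes differed between groups. H2A.Z marks the nucleosomes next to transcription start sites, and H2az1 and H2az2 encode its 2 forms. H2az2 read 12.59, 12.38, 12.71 and 12.69 in XY FOXL2+ gonads, 12.28, 12.41, 12.37 and 12.46 in XX control gonads, and 13.14, 13.0, 13.14 and 13.03 in XY control gonads. All XY FOXL2+ and XX control arrays lay below all XY control arrays. It was 1.4-fold lower in XY FOXL2+ than in XY control gonads (log2 difference -0.49 ± 0.09, SE, limma adjusted p = 0.00512) and 1.62-fold lower in XX control than in XY control gonads (limma adjusted p = 0.00013). The difference between XY FOXL2+ and XX control gonads was 0.21, with a 95% interval of 0.02 to 0.41 (limma adjusted p = 0.216). H2az2 was the only histone gene lower in XY FOXL2+ than in XY control gonads.

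H2az1 read 14.03, 13.33, 13.55 and 13.54 in XY FOXL2+ gonads, 12.97, 13.05, 13.11 and 13.01 in XX control gonads, and 13.88, 13.97, 13.75 and 13.41 in XY control gonads. The XX control arrays lay below all others, while XY FOXL2+ and XY control arrays overlapped. It was 1.64-fold lower in XX control than in XY control gonads (limma adjusted p = 0.00396) and differed by -0.14 between XY FOXL2+ and XY control gonads (95% interval -0.46 to 0.18). It was 1.49-fold higher in XY FOXL2+ than in XX control gonads (limma adjusted p = 0.039), a call lost in 12 of 20 alternatives, with an adjusted p of up to 0.0978. Against XY control, XY FOXL2+ gonads were thus called lower for H2az2 and not for H2az1, and whether the 2 genes differ in that comparison was not tested.

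**Figure D5:**
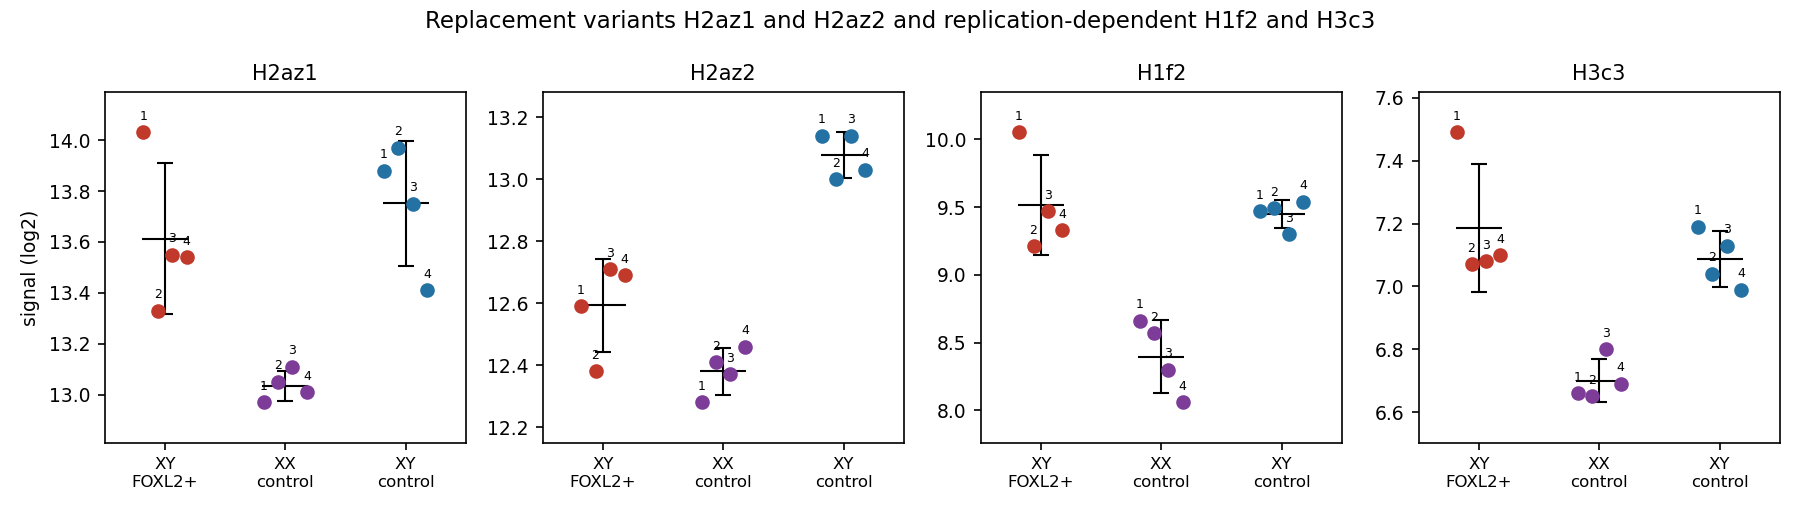
Signal (log2, vertical axis) of H2az1, H2az2, H1f2 and H3c3 on each array by genotype; points are embryos with replicate numbers and bars are mean and SD of 4 arrays. XX control arrays lie below all XY control arrays in the 4 panels, and XY FOXL2+ arrays lie below all XY control arrays for H2az2 alone.

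H3f3a and H3f3b were read through shared rows that also carry other symbols. These rows were lower in XX control than in XY control gonads, at -0.27 (limma adjusted p = 0.0392) and -0.47 (limma adjusted p = 0.000868). The latter was also higher in XY FOXL2+ than in XX control gonads, by 0.3 (limma adjusted p = 0.0383). Neither row was called between XY FOXL2+ and XY control gonads. The other replacement variants of the name rule with a row of their own were not called. H2ax, whose product is phosphorylated at DNA breaks, averaged 13.82 ± 0.29 in XY FOXL2+, 13.4 ± 0.1 in XX control and 13.76 ± 0.13 in XY control gonads (SD, n = 4 each). Its difference between XX control and XY control, -0.37, had a limma adjusted p of 0.0749, and that between XY FOXL2+ and XX control, 0.42, one of 0.0844. Macroh2a1, which encodes an H2A variant with a macro domain found on the inactive X chromosome, averaged 10.79 ± 0.05 in XY FOXL2+, 11.02 ± 0.04 in XX control and 10.83 ± 0.05 in XY control gonads. The XX control arrays lay above all others, by 0.18 over XY control (limma adjusted p = 0.109). Macroh2a2, its paralogue, averaged 12.48, 12.46 and 12.46 in the same order of groups. H2aj averaged 8.71, 8.7 and 8.85, and the linker histone gene H1f10 6.19, 6.03 and 6.3, again in that order. Among the 7 pseudogenes and unclassed copies none was called in any comparison, and 1 had an unadjusted limma p under 0.05 between XX control and XY control gonads. H2af-ps1, H2af-ps2, H2bu1-ps, H3f3a-ps1, H3f3a-ps2, H1f11-ps and Macroh2a3 changed by -0.08 to 0.52 between XY FOXL2+ and XY control gonads, with the highest value in H2bu1-ps.

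Genes that process histone mRNA or carry histones were followed beside the family, 22 of a list of 24. Asf1b and Npat were higher in XY FOXL2+ than in XY control gonads, which made 2 higher and 0 lower, against 3.38% and 4.72% of all genes. At an unadjusted limma p under 0.05, 6 were higher and 4 lower, a threshold at which the share of all genes was not computed. The count of called genes was 4 without XY FOXL2+ replicate 1. Asf1b, a chaperone that hands H3 and H4 to new DNA, read 12.09, 12.77, 11.99 and 11.77 in XY FOXL2+ gonads, 12.2, 12.51, 12.46 and 12.22 in XX control gonads, and 10.8, 10.96, 10.86 and 10.89 in XY control gonads. All XY FOXL2+ and XX control arrays lay above all XY control arrays, by 2.43-fold (limma adjusted p = 0.000569) and 2.78-fold (limma adjusted p = 6.94e-05). Npat, the coactivator of replication-dependent histone gene transcription, was 1.46-fold higher in XY FOXL2+ (limma adjusted p = 0.00696) and 1.71-fold higher in XX control gonads (limma adjusted p = 0.000197), each against XY control.

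Between XX control and XY control gonads 5 of the 22 genes of that list were higher and 3 lower, against 10.2% of all genes higher and 11% lower. Casp8ap2, known as FLASH and needed for histone mRNA processing, was 1.67-fold higher in XX control gonads (limma adjusted p = 0.00032). Hjurp, the chaperone of the centromeric H3 variant, was 1.58-fold lower (limma adjusted p = 0.00154). The gene of that variant, Cenpa, is on this list because the name rule does not match it, and it is named after its values were seen. It was also lower, at -0.56 (limma adjusted p = 0.00201). Between XY FOXL2+ and XY control gonads Cenpa differed by -0.31 and was not called (limma adjusted p = 0.0982). Casp8ap2 was the only gene of the list called between XY FOXL2+ and XX control gonads, at -0.42 (limma adjusted p = 0.0356), a call lost in 8 of 20 alternatives. It read 10.99, 11.24, 10.92 and 10.85 in XY FOXL2+ gonads, against 11.19, 11.53, 11.5 and 11.49 in XX control gonads, with XX control replicate 1 inside the XY FOXL2+ range. Without XY FOXL2+ replicate 2, 6 genes of the list were called in that comparison, and with single other arrays left out 0 or 1.

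Of 23 S phase genes, 2 were higher in XY FOXL2+ gonads than in XY control gonads and 0 lower, against 3.38% and 4.72% of all genes. At an unadjusted limma p under 0.05, 5 were higher and 1 lower, again without a share of all genes at that threshold. The 2 called genes were the cyclin E genes, whose products drive entry into S phase and act on NPAT. Ccne2 read 10.9, 11.43, 11 and 10.95 in XY FOXL2+ gonads, 11.1, 11.04, 11.32 and 10.97 in XX control gonads, and 9.64, 9.67, 9.52 and 9.56 in XY control gonads. It was 2.78-fold higher in XY FOXL2+ (limma adjusted p = 8.91e-06) and 2.85-fold higher in XX control gonads (limma adjusted p = 3.89e-06), each against XY control, with no overlap. Ccne1 was 2.45-fold higher in XY FOXL2+ than in XY control gonads (limma adjusted p = 0.0136, but 0.0585 with only the 2 groups compared) and 2.76-fold higher in XX control than in XY control gonads (limma adjusted p = 0.00258). Between XX control and XY control gonads 4 S phase genes were higher and 1 lower, against 10.2% and 11% of all genes. Among them Lig1, a DNA ligase, was 1.41-fold higher (limma adjusted p = 0.0215, a call lost in 4 of 20 alternatives with an adjusted p of up to 0.0643). Tyms, thymidylate synthase, was 1.44-fold lower (limma adjusted p = 0.00714). The total of 5 called S phase genes in that comparison was 8 without XY FOXL2+ replicate 1, and 3 without XX control replicate 2 or 3 or XY control replicate 1 or 3. Tyms was the only one called between XY FOXL2+ and XX control gonads, 1.38-fold higher (limma adjusted p = 0.0374), a call lost in 12 of 20 alternatives.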

How the data were processed

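Per the labels' protocols, 100 ng of total RNA from 1 gonad pair per array was amplified and labelled with the WT Plus kit. The deposited values are log2 signals of transcript clusters made by the authors; the log base was not stated and was taken as log2, and for background correction, summarization and normalization the sources used here name no method. The table held 72688 rows; 6732 control probe sets were left out and 65956 clusters tested, of which 31268 carried 1 symbol, 1482 several and 33206 none in the platform table. Old symbols were updated through RefSeq.

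limma 3.58.1 in R 4.3.3 (lmFit, eBayes with an intensity trend) was fitted to all 12 arrays with 3 group means, with 9 residual degrees of freedom, and p-values were adjusted over 65956 clusters. No filter on low signal was applied: 41 of 50 members, 23 of 25 replication-dependent and 6 of 11 germline genes, averaged above the median cluster. Single genes were also tested by exact permutation.

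Named were all genes that are not replication-dependent, the highest-signal replication-dependent gene of each family and up to 3 called per comparison, and up to 4 called per comparison from the 2 process lists. Members and lists were chosen with earlier results of these data known. Replicates are separate embryos. Precision is limited by the number of arrays. Alternatives were quantile normalization, median centring, a fit on the 2 groups compared, array weights, no intensity trend, a filter at the median signal, a replicate block, averaged rows and each array left out; the counts without XY FOXL2+ replicate 1 for shared rows and marker lists were added after seeing the data.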

Additional observations from a re-analysis of the deposited data

Results flagged for a closer look

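In 4 of 99 groups of 4 arrays, over 33 named genes, a single array lay far from the other 3 of its group; chance alone gives about 1 in 20 such groups. H3c3 read 7.49 in XY FOXL2+ replicate 1, against 7.07 to 7.1 on the other XY FOXL2+ arrays. H2bc18 read 10.42 in XX control replicate 2, against 10.68 to 10.73 on the other XX control arrays. H1f3 read 6.04 in XX control replicate 4, against 5.9 to 5.93. Casp8ap2 read 11.19 in XX control replicate 1, against 11.49 to 11.53. Of the 4, 1 fell in XY FOXL2+ replicate 1, the array that stands apart.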

How the results depend on the processing

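H2ac1, H2bc1 and H3f4 kept their calls against XY control in all 20 alternatives, at 3.58 to 4.42, 2.39 to 3.02 and 0.8 to 1.23 for XY FOXL2+. Against XX control, H2ac1 in XY FOXL2+ passed the test with array weights, at -1.06, and ranged from -1.57 to -0.72 when single arrays were left out; H2bc1 ranged from -1.28 to -0.65; both passed without XY FOXL2+ replicate 2. Of 1842 values of the named genes other than H2ac1 and H2bc1 under alternatives, 1762 kept their side of the threshold. Of the rest, 45 lost and 35 gained a call, and 0 changed sign while called.

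Counts of called histone genes moved more. Higher in XY FOXL2+ than XY control: 3 to 5 with 1 array left out, 5 without XY FOXL2+ replicate 4. Higher in XX control than XY control: 6 with only the 2 groups compared and 7 with array weights. Lower there: 11 with only the 2 groups compared, 8 with array weights, 7 with only clusters above the median signal, and 3 to 10 with 1 array left out, 10 without XY FOXL2+ replicate 1. Higher in XY FOXL2+ than XX control: 2 with median centring or only the 2 groups compared, and 2 to 4 with 1 array left out, 2 without XX control replicate 2 or 3. Lower there: 2 with array weights, 1 with no intensity trend, 1 above the median signal, and 0 to 2 with 1 array left out, 2 without XY FOXL2+ replicate 2.

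Called chaperone and processing genes numbered 4 under quantile normalization and 2 to 4 with 1 array left out (4 without XY FOXL2+ replicate 1) between XY FOXL2+ and XY control. Against XX control, XY FOXL2+ gave 0 with only the 2 groups compared, 3 with array weights, and 0 to 6 with 1 array left out: 6 without XY FOXL2+ replicate 2, and 0 without XY FOXL2+ replicate 3 or 4, XX control replicate 2, 3 or 4, or XY control replicate 1 or 3. Called S phase genes between XY FOXL2+ and XY control numbered 4 under quantile normalization and 1 with only the 2 groups compared. Between XX control and XY control they numbered 10 with only the 2 groups compared, 9 with array weights, and 3 to 8 with 1 array left out, 8 without XY FOXL2+ replicate 1 and 3 without XX control replicate 2 or 3 or XY control replicate 1 or 3. Against XX control, XY FOXL2+ gave 0 with median centring or only the 2 groups compared, 2 with array weights, and 0 to 1 with 1 array left out, 1 only without XY FOXL2+ replicate 1 or 2. Fits on fewer arrays, or with other weights or filters, estimate the spread from other values; the cause of each move was not tested.

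Deviations of same-numbered arrays correlated at -0.091 to 0.179 over 12 pairs, with 2 above 0.1, so the numbers were not taken to pair embryos. With the replicate number as a block, XY FOXL2+ gonads had 3 histone genes higher and 1 lower than XY control, XX control had 3 higher and 4 lower than XY control, and XY FOXL2+ had 3 higher and 0 lower than XX control; the call lost was that of H2az1.

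Low signals, shared probes and 4 arrays per group limit what can be seen, and the H2A, H2B, H3 and H4 copies of a cluster cannot be told apart gene by gene.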
